A study of Homo sapiens with 2 samples.

Results

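The kallikreins KLK1, KLK15, KLK3, KLK2, KLKP1, KLK4, KLK5, KLK10, KLK11 and KLK12 were examined in LNCaP, an established line of androgen-sensitive prostate carcinoma cells. These 10 genes were taken by name, in their order on chromosome 19, from a table of 64081 genes, and the cluster holds 16 kallikreins in all. The cells had been kept for 48 h in medium with 10% charcoal stripped serum, which is poor in androgen, and 10 mM HEPES. From 2 biological replicates, poly(A)+ RNA was read as strand-oriented pairs of 75 nt. There is 1 condition and no untreated or androgen-treated group, and the deposited counts of both replicates stand in 1 column. Every value is therefore a single count for both replicates together, no value has a replicate error, and no test was made. Intervals are at 95% and hold for the error of counting alone, because no molecular identifiers were used and copies of 1 molecule may be counted more than once.

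Kallikreins are secreted serine proteases of the chymotrypsin fold, made as inactive proenzymes and encoded by a run of neighbouring genes. KLK3 encodes prostate-specific antigen (PSA), which liquefies semen by cutting semenogelins, and KLK2 encodes a trypsin-like protease that can activate the PSA proenzyme. Transcription of KLK3 and KLK2 is known to rise with androgen in the prostate epithelium.

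The strand of these counts has to be read first. The methods name the library type fr-secondstrand for LNCaP, in which the first read has the orientation of the RNA, and name the reverse setting of htseq-count for paired-end strand-specific data. If both were applied as named, a gene's count is of pairs that run opposite to it, and pairs of PSA mRNA in the right orientation would fall among those assigned to no feature, as no gene is annotated opposite KLK3. The table does not state whether the reverse setting was applied to these libraries. Its values bear on the question: 93.5% of the uniquely placed pairs were assigned to no feature. At the median, 24 pairs were listed for protein-coding genes that face exons of another gene, and 3 for those that face none. Which setting gave these values was not tested, and the share of pairs in the wrong orientation was not measured. The values that follow are counts as listed, whose strand of origin was not tested, and they are not given as levels of kallikrein mRNAs.

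The cluster runs over 265101 nt, at chr19:51322402-51587502 of GRCh37. KLK3 (ENSG00000142515, chr19:51358171-51364020) and KLK2 (ENSG00000167751, chr19:51364824-51383823) lie on the plus strand, 803 nt apart. The other 14 kallikreins lie on the minus strand. KLK1 (ENSG00000167748, chr19:51322402-51327043) and KLK15 (ENSG00000174562, chr19:51328545-51340469) come before them, so that KLK15 and KLK3 stand head to head with 17701 nt between. KLKP1 (ENSG00000197588, chr19:51391122-51391524) follows tail to tail with KLK2 after a gap of 7298 nt, and then come KLK4 (ENSG00000167749, chr19:51409607-51414651) and KLK5 (ENSG00000167754, chr19:51446559-51456349). KLK10 (ENSG00000129451, chr19:51515995-51523431), KLK11 (ENSG00000167757, chr19:51525472-51531295) and KLK12 (ENSG00000186474, chr19:51532348-51538486) form a tight group further on, with gaps of 2040 and 1052 nt.

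**Figure D1:**
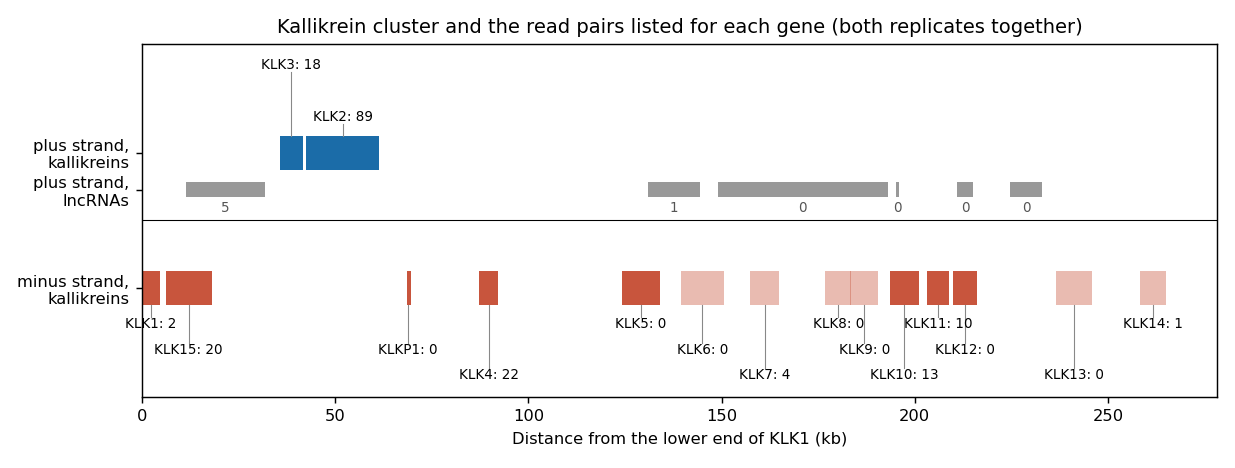
Genes of the cluster by distance from the lower end of KLK1 (kb), with plus-strand kallikreins in blue, minus-strand ones in red (paler for those outside the 10 listed) and plus-strand lncRNAs in grey. The number at each gene is its count for both replicates together; KLK2, on the plus strand, has 89, and no minus-strand kallikrein has more than 22.

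The members are paralogs, and how alike they are decides which of them a read can tell apart. The first 48 nt of the last coding exon are shown for the members with at least 1 pair, on the coding strand of GRCh37, because they carry the codon of the catalytic serine, given in capitals. The codon was found through the protein motif GDSGGP, which has no match in KLK10.
KLK1 (chr19:51322558-51322605, minus): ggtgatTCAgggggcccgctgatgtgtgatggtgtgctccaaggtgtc
KLK15 (chr19:51329157-51329204, minus): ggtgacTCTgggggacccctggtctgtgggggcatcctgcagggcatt
KLK3 (chr19:51363228-51363275, plus): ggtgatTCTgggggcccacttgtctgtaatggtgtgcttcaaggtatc
KLK2 (chr19:51381660-51381707, plus): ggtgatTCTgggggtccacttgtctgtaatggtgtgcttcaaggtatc
KLK4 (chr19:51410295-51410342, minus): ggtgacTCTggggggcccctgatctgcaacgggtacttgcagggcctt
KLK11 (chr19:51525906-51525953, minus): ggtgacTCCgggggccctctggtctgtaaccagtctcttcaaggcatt
KLK3 and KLK2 differ at 1 of these 48 nt, KLK1 differs from KLK3 at 8, and KLK4 differs from KLK3 at 17. Over whole coding sequences, KLK3 and KLK2 were 85.3% identical (668 of 783 aligned nt). KLK1 was 75.4% identical to KLK2 and 74.4% to KLK3, and no other pair of kallikreins exceeded 67.9%.

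The longest run without a difference between the coding sequences of KLK2 and KLK3 was 60 nt, and 149 nt around it, at the end of the third coding exon, are shown. Capitals mark the 9 of 149 nt that differ.
KLK2 (chr19:51379866-51380014, plus): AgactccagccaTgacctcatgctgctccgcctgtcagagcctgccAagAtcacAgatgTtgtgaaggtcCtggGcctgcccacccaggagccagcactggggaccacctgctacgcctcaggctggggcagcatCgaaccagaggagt
KLK3 (chr19:51361423-51361571, plus): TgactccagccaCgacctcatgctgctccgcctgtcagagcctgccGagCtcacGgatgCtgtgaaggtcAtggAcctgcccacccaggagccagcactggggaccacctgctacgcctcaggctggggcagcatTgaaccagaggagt
A read of 75 nt with 97% identity to another place was possible over 114 nt of KLK3 exons (2.46%), all of them matching KLK2. For KLK2 this held for 377 of 6351 nt (5.94%), of which 234 nt match KLK3. It held for 10.9% of KLK4, 9.82% of KLK10 and 7.90% of KLK11, in each case outside the kallikrein genes, and for none of KLK1, KLK15, KLKP1, KLK5 or KLK12. At 99% identity, no nucleotide of KLK2 or KLK3 matched elsewhere over a read. Each exon was compared alone, so reads that cross a splice junction were not examined. Pairs without a unique place were not counted on any gene, and their number per gene is not in the table.

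Among the members, KLK2 had the most pairs. Its count was 89 (exact Poisson interval 71.5 to 109.5), which was 51.1% of the 174 pairs of all members (exact binomial interval 43.5% to 58.8%). KLK3, its nearest paralog and neighbour, had 18 pairs (10.7 to 28.4). The intervals of the 2 genes do not overlap.

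On the minus strand, KLK4, a protease known from enamel maturation and also made in the prostate, had 22 pairs (13.8 to 33.3). KLK15, which can also activate the PSA proenzyme, had 20 (12.2 to 30.9). These counts and that of KLK3 lie within each other's intervals. KLK10, first described in normal mammary epithelium, had 13 pairs (6.92 to 22.2) and KLK11, a trypsin-like family member, had 10 (4.80 to 18.4). KLK1, the tissue kallikrein that releases kinins from kininogen, had 2 (0.242 to 7.22), and is the lowest member with any pair.

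KLK5, a protease of skin shedding, KLK12 and the pseudogene KLKP1 had 0 pairs. A count of 0 is given with a limit of 3 pairs, or 0.316 CPM, the count scaled by all pairs counted on genes. This limit is one-sided, and the upper end of the exact Poisson interval used for the other members would be 3.69 pairs. On that scale KLK2 was at 9.37 CPM (7.53 to 11.5) and KLK3 at 1.90 CPM, and the members together at 18.3 CPM. The scale depends on the library size, as the 3 genes of highest count held 48.5% of the pairs on genes. KLK2 was at 0.599 CPM of all uniquely placed pairs and at 18.2 CPM without those 3 genes. The value of KLKP1 refers to an interval of 403 nt. The current annotation also gives this symbol to a lncRNA of 1912 exonic nt (ENSG00000290915, chr19:51385352-51399654) that contains the interval and was not analysed here.

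At least 10 pairs were listed for 6 of the 10 members (60%). Among all genes of the table this held for 24.3%, among 19404 protein-coding genes for 44.2%, and among the 12292 protein-coding genes without annotated exons on the opposite strand for 32.8%. The list of members was not neutral in this respect, since it holds all 6 kallikreins of the cluster with 10 pairs or more. KLK6, KLK8, KLK9 and KLK13 had 0 pairs, KLK14 had 1 and KLK7 had 4. The 16 kallikreins together had a median of 1.5 pairs, against 6 for protein-coding genes. Of KLK9 exons 96.3% are shared with other genes of the same strand, KLK8 and the read-through gene ENSG00000269741, and of KLK8 exons 40.1%; a pair there can be ambiguous and count for no gene.

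**Figure D2:**
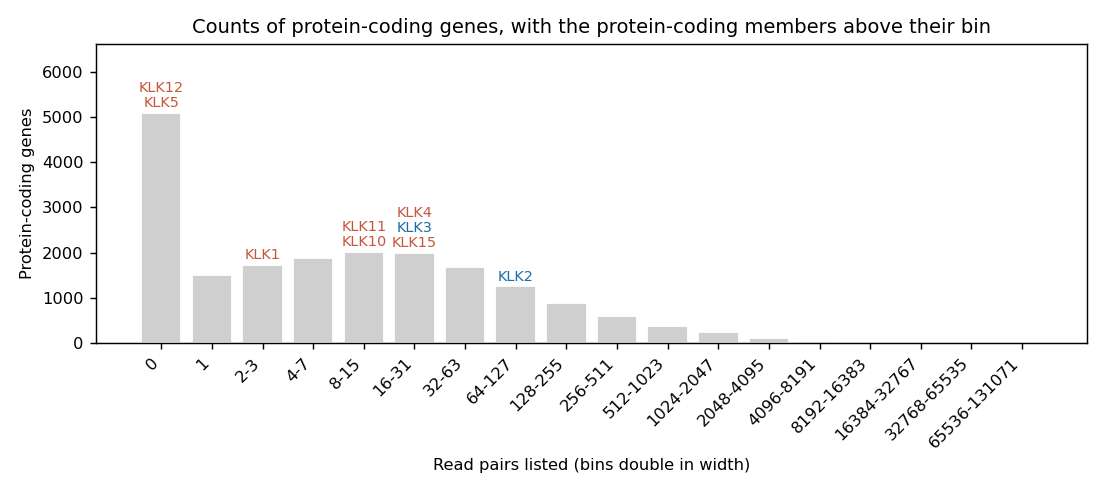
Number of protein-coding genes (vertical axis) by the read pairs listed for them (horizontal axis, bins that double in width), with the names of the 9 protein-coding members above their bin (blue, plus strand; red, minus strand). KLK2 falls in the bin from 64 pairs, whereas KLK15, KLK3 and KLK4 share the bin from 16 pairs and KLK5 and KLK12 are at 0.

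Ranked among genes with at least 1 pair, whose median was 12, KLK2 was at percentile 81.5 and KLK3 at percentile 57.2. KLK4 and KLK15 were close to KLK3, at percentiles 61.0 and 59.2. KLK10 and KLK11 fell near the middle, at 51.3 and 46.5, and KLK1 was at 17.6. Ranked per kb of exon, KLK2 was at percentile 63.2 and KLK3 at 41.8.

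Genes can be compared with each other only per length. With the union of all annotated exons as the length, KLK2 (6351 nt) had 14.0 pairs per kb (11.3 to 17.2) and KLK4 (2004 nt) had 10.98 (6.88 to 16.6). Per kb of this length, KLK2 and KLK4 could not be told apart beyond counting error. Their ratio was 1.28, with an exact conditional binomial interval of 0.793 to 2.14. KLK15 followed with 6.42 pairs per kb, KLK3 with 3.88, KLK10 with 3.42, KLK11 with 3.21 and KLK1 with 0.840. The median of protein-coding genes was 1.22 pairs per kb, and 0.602 for those without opposite exons. Among these 7 genes, no 2 neighbours in the order differed beyond counting error.

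Differences appeared between genes further apart in the order. Per kb, KLK2 was 3.61 times KLK3 (interval 2.16 to 6.37), 2.18 times KLK15 (1.33 to 3.75), 4.09 times KLK10 (2.28 to 7.99) and 4.36 times KLK11 (2.26 to 9.41). The annotated models matter here, since KLK2 has 23 transcripts. With the longest transcript as the length, KLK2 had 31.3 pairs per kb and KLK4 15.5, a ratio of 2.01, and its interval (1.25 to 3.37) no longer held 1.

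**Figure D3:**
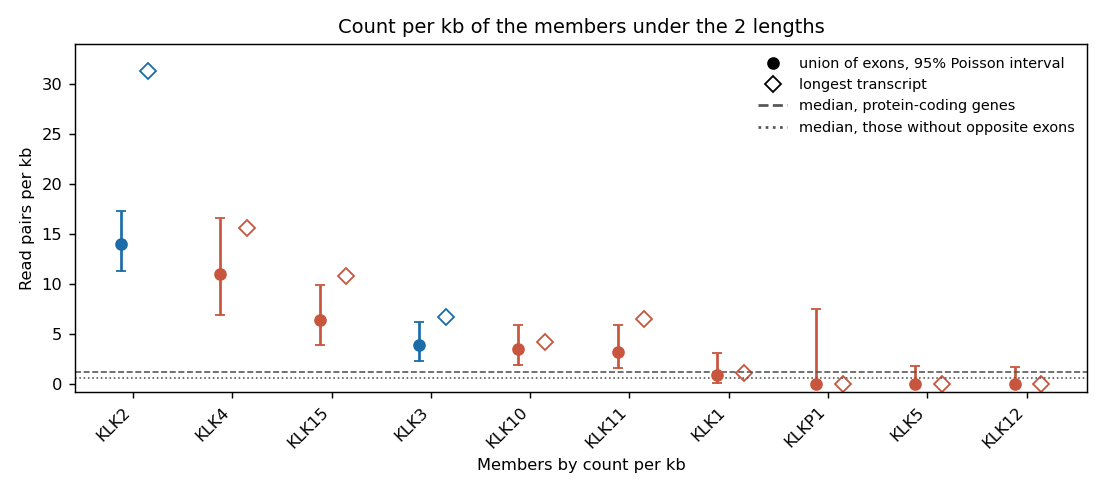
Read pairs per kb of each member, highest first; filled circles use the union of exons with exact 95% Poisson intervals (for a count of 0, the limit of 3 pairs), diamonds the longest transcript, the lines mark medians of all protein-coding genes and of those without opposite exons, and blue marks the plus strand. KLK2 is highest with either length, at 14.0 and 31.3, and KLK4 second, at 10.98 and 15.5.

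The strands of the cluster were unequally filled. Of the members' 174 pairs, 107 (61.5%, exact binomial interval 53.8% to 68.8%) were listed for KLK3 and KLK2 on the plus strand, and 67 for the 8 members on the minus strand. Per kb of exon this was 9.74 against 3.67, a ratio of 2.65 (1.93 to 3.65). This excess rests on 1 gene: without KLK2, the plus strand held 21.2% (13.1% to 31.4%) of 85 pairs and the ratio per kb was 1.06 (0.591 to 1.80). Over all 16 kallikreins the ratio per kb was 4.02 (2.96 to 5.50). The 6 kallikreins added there lie on the minus strand and had 5 pairs together. Over the 24 genes of the cluster that were matched between the table and the current annotation it was 3.01 (2.22 to 4.10). Both ratios include KLK2, and neither was computed without it. Which strand of the DNA the pairs were transcribed from was not tested.

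The current annotation has few exons of other genes on the strand opposite the members. KLK2, KLK3, KLK4, KLK1, KLK11 and KLKP1 have no annotated gene on the opposite strand at all, neither exon nor intron. KLK15 lies opposite the body of the lncRNA ENSG00000267968 over 56.1% of its span but shares no exonic nucleotide with it. In KLK5, KLK10 and KLK12, exons of lncRNAs cover 202, 240 and 160 nt (12.2%, 6.32% and 9.04% of the exonic length) on the opposite strand. No protein-coding exon lies opposite any member.

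KLK5, KLK10 and KLK12, the 3 members with such exons, had 0, 13 and 0 pairs, and the 7 without had a median of 18 and a highest count of 89. The list of members holds all 6 kallikreins with 10 pairs or more, which raises the median of the 7. Over all 16 kallikreins, the median was 0 for the 4 with opposite exons and 3 for the 12 without. Over all protein-coding genes the order was the other way round, with medians of 24 pairs for 7112 genes with opposite exons and 3 for those without.

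Where an annotated lncRNA lies opposite a kallikrein exon, its listed count is of the orientation opposite to that counted for the kallikrein. ENSG00000268739, whose 240 exonic nt all lie opposite KLK10, had 0 pairs. ENSG00000268906, with 33.0% of its exonic length opposite KLK12, and ENSG00000267879, with 4 nt opposite KLK6, also had 0. ENSG00000269495, with 62.9% opposite KLK5 and KLK6, had 1 pair. Among the genes of the cluster matched to the current annotation that are no kallikrein, the highest count was 5 (1.62 to 11.7), for ENSG00000267968 beside KLK15. No exon of the current annotation lies opposite KLK3 or KLK2, so no gene matched to it counts the other orientation there. Genes of the table without a match in this annotation were not searched.

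Substrates, inhibitors and receptors of kallikreins were looked at as a list of 25 genes, all of which were found in the table. At least 10 pairs were listed for 10 of them, a share near the 44.2% of protein-coding genes, 7 had 0, and the median was 3. SEMG1 and SEMG2, the semenogelins cut by PSA, had 0 pairs each, as did SERPINA3, the serpin that binds PSA in blood. SERPINA5, the protein C inhibitor, had 1. The highest counts were 1327 for FN1 (fibronectin), 335 for SPINK9, 181 for DSG1 and 163 for AMELX. Then came 84 for F2RL2, 56 for CDSN, 49 for F2R, 16 for A2M, 14 for ENAM and 11 for F2RL3. Among the 10, CDSN has exons of other genes opposite 93.7% of its exonic length. DSG1, SPINK9, F2R, F2RL2 and A2M have them opposite 8.88% or less, and FN1, AMELX, ENAM and F2RL3 have no opposite exons. Whether introns of other genes lie opposite the genes of this list was not examined.

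The depth of the table and the identity of the cells bear on all of these values. Of 148700190 uniquely placed pairs, 9495309 (6.39%) were counted on genes, and the members held 0.00183% of the latter. Markers of prostate luminal epithelium were listed from 3 pairs (ACPP) to 6947 (KRT8), and 8 of 10 had at least 10, beside 44.2% of protein-coding genes. The basal markers KRT5, KRT14 and TP63 had 0, 1 and 1, and the stromal markers DES, COL1A1 and VIM had 0, 6 and 13. The leukocyte markers CD3E, PTPRC and CD68 had 0, 1 and 33, and the endothelial markers VWF and CDH5 had 0 and 3. As the strand of these counts is also not known, they are no check of the cell line, and their part in the values of the kallikreins was not tested.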

How the data were processed

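For trimming, the authors used Trimmomatic 0.30. Mapping to hg19 was done with TopHat2 2.0.12 and Bowtie2 2.2.3, and the authors assigned read pairs, sorted by name, to genes with htseq-count (HTSeq 0.6.1p1). They deposited raw counts per gene, without normalization, and 1 column holds both of the 2 replicates, so replicates could not be compared.

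Ensembl identifiers were matched without version to GENCODE 44 lifted to GRCh37, which is hg19. These models are newer than those counted. Of the 64081 genes in the table, 55538 were matched, and the positions of the others were not examined. Exonic length is the union of all exons of a gene. CPM uses the pairs counted on genes as the library size. Intervals of counts are exact Poisson, of shares exact binomial (Clopper-Pearson) and of ratios exact conditional binomial, at 95%; the Poisson and ratio intervals and the overlap of exons were tested on simulated data. Exons were aligned to the genome with BLAST 2.17.0+ (alignments of at least 85% identity) and, without that minimum, to the cluster, and windows of 75 nt with at least 97% identity elsewhere were marked. Coding sequences of the canonical transcripts were aligned globally with Biopython 1.88. Python 3.11.15, numpy 2.4.6, scipy 1.17.1, matplotlib 3.10.9 and samtools 1.23.1 were used.

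The members and gene lists were chosen with earlier results of these data known. Named are all kallikreins, genes with exons opposite them, the non-kallikrein genes of the cluster with the highest counts, and list genes with at least 10 counts; SEMG1, SEMG2, SERPINA3 and SERPINA5 were named after their values were seen. One older symbol (ACPP) was matched through RefSeq, and PECAM1 was not analysed here. Values of some single marker genes are not reported here. Alternatives were the exonic length, the library size, the minimum count, the genes ranked against, the genes of the strand share, the exons taken as opposite and the identity over a read.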

Additional observations from a re-analysis of the deposited data

Results flagged for a closer look

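Pairs that were not counted on a gene lie outside the comparisons. Their totals are over the whole genome and cannot be set against the limit of 3 pairs, which holds for a single gene. There were 138995418 pairs on no annotated feature of the counted strand, 209463 pairs ambiguous between genes and 34171204 alignments without a unique place. The table does not divide these by position, so how many of them lie in the kallikrein cluster was not analysed here. No group has the 4 samples that a check for outlying samples needs.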

How the results depend on the processing

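The limits are the strand of origin of the pairs, which was not tested, the few pairs counted per member, and the annotation. The 7 members with any pair rest on 2 to 89 pairs, and leaving out a replicate was not possible, because both stand in 1 column. No paired analysis was possible because there is 1 group. With the longest transcript as the length, the count per kb moved beyond its interval for KLK15 (10.8), KLK3 (6.66), KLK2 (31.3) and KLK11 (6.49), and 5 of 7 members kept their rank, since KLK10 and KLK11 changed places. Stretches that match another place were taken out of the length only, with the counts kept, and no count per kb moved beyond its interval. This could change the values little, as these stretches are at most 10.9% of a member's exons. The 7 members with any pair share no exon stretch with a gene on the same strand, so taking such stretches out could not change a value. Counts without a length gave the same order. The members together were at 1.17 CPM with uniquely placed pairs as the library size and at 35.6 CPM without the 3 genes of highest count, which changes every gene by the same factor. At least 20 pairs were listed for 3 members. The share of the plus strand was 61.1% over all annotated genes of the cluster and, in an alternative added after the data were seen, 21.2% without KLK2. Exons of protein-coding genes cover 0 nt opposite the members, against 602 nt for all genes. At 99% identity, 252 nt of the members' exons match another place over a read, against 1329 nt at 97%. Percentiles moved beyond their range in 3 of 14 alternatives, for KLK15, KLK3 and KLK2 when ranked per kb.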
